A study of Mus musculus with 7 samples.

Results

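The sodium pump subunits and Fxyd regulators described here are 6 of the 56748 genes counted in each library of cultured mouse muscle stem cells (MuSCs). They are the regulators *Fxyd6*, *Fxyd1* and *Fxyd5* and the beta subunits *Atp1b1*, *Atp1b3* and *Atp1b4*, found in the count files by Ensembl identifier. The set was built around the fall of *Fxyd6* in *Jag2sm* MuSCs, and the question was whether the pump subunits follow it. The genes were thus chosen by their normalized counts in WT and *Jag2sm*, so the values of that comparison for these 6 genes are a description that supports no further claim, and no p-value is given for them. Of the 6 genes, 5 passed the edgeR filter on low counts and *Atp1b4* did not.

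The study asked how the Notch ligand gene *Jag2* acts in MuSCs. RNA of MuSCs from the hindlimb muscle of adult mice was read as direct cDNA on a nanopore instrument in 7 libraries. Of these, 3 are labelled WT. The other 4 *Jag2sm* libraries come from mice homozygous for a naturally occurring, hypomorphic allele with a changed residue in the first EGF repeat of JAG2, and their genotype label reads Jag2-/-.

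The cells of both genotypes were enriched with magnetic beads as integrin α7-positive cells without CD31, CD45 or Sca1, and, per the growth protocol in the labels, were then kept in growth medium with serum and bFGF. How long they were kept there before RNA was taken is not given. Mouse numbers, sex and age in weeks are not given for the libraries, and nothing states that each came from its own animal, so the spread between libraries may be partly technical. The *Jag2* transcript was measured at 80.7, 114 and 116 CPM, that is counts scaled to the same normalized library total, in WT replicates 1 to 3 and 42.4, 78.8, 71.9 and 77.4 CPM in *Jag2sm* replicates 1 to 4. The *Jag2sm* values all lay below the WT values, but the difference was not significant (log2 fold change -0.64, SE 0.24, edgeR adjusted p = 0.166), and an allele that changes a residue is not checked by the level of its transcript.

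The libraries differed in depth and in the share of reads that could be placed. Reads counted on genes numbered 187834, 1657016 and 1159203 in WT replicates 1 to 3 and 671660, 1421058, 1937581 and 1223863 in *Jag2sm* replicates 1 to 4. WT replicate 1 was the shallowest library, and 45.1% of its aligned reads fell on no gene, against 20.8% to 25.7% in the others. Reads without an alignment made up 50.8%, 46.7% and 46.0% of all reads in *Jag2sm* replicates 1, 2 and 4 but 3.07% in *Jag2sm* replicate 3 and 2.44% to 3.24% in WT. In WT replicate 1, 3 counts were worth 17.3 CPM, and in the other libraries they were worth 1.48 to 4.24 CPM. Log2 fold changes of the 5 tested pump and Fxyd genes and of the genes called in the ion transport lists are therefore also given without WT replicate 1 and with *Jag2sm* replicate 3 as the only *Jag2sm* library. In the last case the lone library is assumed to vary as the WT libraries do, and a call lost there does not show a smaller difference.

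The sodium pump (Na,K-ATPase) moves sodium out of the cell and potassium in at the cost of ATP, and so keeps the gradients that set the membrane potential and drive sodium-coupled transport. The catalytic alpha subunit carries the ions, the beta subunit is a glycoprotein needed to fold the alpha subunit and bring it to the cell surface, and small membrane proteins of the FXYD family bind the complex and tune its affinity for ions. In skeletal muscle the pump restores the gradients after each action potential, and the muscle forms of its subunits are known to come up as fibers mature.

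On the GRCm39 build, *Fxyd6* lies on the plus strand at chr9:45281302-45307457, and *Fxyd2*, another gene of the family, starts 3509 bases after its end. *Fxyd1* (chr7:30751092-30756677) and *Fxyd5* (chr7:30732147-30741906) lie on the minus strand 9185 bases apart, in a cluster of 4 Fxyd genes that spans 43983 bases. The beta subunit genes among the members are spread over 3 chromosomes. *Atp1b1* is at chr1:164264678-164285957 and *Atp1b3* at chr9:96214674-96246814, both on the minus strand, and *Atp1b4* is at chrX:37405026-37425663 on the plus strand. Exons of *Atp1b1* overlap those of *Gm32391* and *Nme7* on the opposite strand, and exons of *Fxyd5* hold *Mir7050*. Whether the counting used strand is not given, so reads of *Atp1b1* and of its antisense neighbours may not have been told apart.

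*Fxyd6* and *Fxyd1* had every *Jag2sm* library below every WT library, though the main edgeR test did not call *Fxyd1*. *Atp1b3* overlapped between the genotypes. The DNA just before the outermost annotated start of each of these genes is shown to set them side by side. It is given as 250 bases read 5′ to 3′ on the strand of the gene. The windows are chr9:45281052-45281301 for *Fxyd6*, chr7:30756678-30756927 for *Fxyd1* and chr9:96246815-96247064 for *Atp1b3*. They are the windows of the 5 tested genes that hold no annotated exon, while those of *Fxyd5* and *Atp1b1* do. Capitals mark each match to CANNTG, the E-box core that basic helix-loop-helix factors such as MYOD can bind.
Fxyd6: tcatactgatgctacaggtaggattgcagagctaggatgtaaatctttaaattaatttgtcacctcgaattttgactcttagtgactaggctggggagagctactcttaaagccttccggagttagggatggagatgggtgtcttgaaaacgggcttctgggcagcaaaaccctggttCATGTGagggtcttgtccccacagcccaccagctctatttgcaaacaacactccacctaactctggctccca
Fxyd1: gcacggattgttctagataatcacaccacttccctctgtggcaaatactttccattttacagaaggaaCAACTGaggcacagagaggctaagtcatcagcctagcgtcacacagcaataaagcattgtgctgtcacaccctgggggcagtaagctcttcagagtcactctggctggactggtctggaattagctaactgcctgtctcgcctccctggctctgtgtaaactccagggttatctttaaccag
Atp1b3: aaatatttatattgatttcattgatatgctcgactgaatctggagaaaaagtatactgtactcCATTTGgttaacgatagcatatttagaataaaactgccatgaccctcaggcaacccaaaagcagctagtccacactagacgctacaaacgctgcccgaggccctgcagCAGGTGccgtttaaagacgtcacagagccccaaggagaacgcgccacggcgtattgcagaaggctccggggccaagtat
The *Fxyd6* window held 1 CANNTG, 72 bases before the start, and the *Fxyd1* window held 1, 182 bases before the start. The *Atp1b3* window held 2, at 187 and 79 bases, and the nearer one is also a CACCTG when read on the opposite strand. Matches were sought on both strands, and CANNTG includes CACCTG and CAGCTG. Of 21770 windows of the same length before protein-coding genes, 66.5% held CANNTG, 17.7% held CACCTG and 12.0% held CAGCTG. The RBPJ motif GTGGGAA, present in 5.62% of all windows, was in none of the 3 shown. Of the windows not shown, those of *Fxyd5* and *Atp1b1* held no CANNTG and no GTGGGAA, and that of *Atp1b4* held 2 CANNTG and 1 GTGGGAA, 177 bases before the start. The GC content was 47.6%, 49.2% and 47.2%, so the 3 windows shown were alike in base composition.

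*Fxyd6* was low in every *Jag2sm* library. It encodes FXYD6, a regulator of the pump best known from brain and inner ear. Its normalized counts were 311, 199 and 228 CPM in WT replicates 1 to 3 and 11.3, 30.4, 17.7 and 31.0 CPM in *Jag2sm* replicates 1 to 4. The highest *Jag2sm* library stood far below the lowest WT library. The means were 246 ± 58.3 CPM (SD, n = 3) and 22.6 ± 9.70 CPM (SD, n = 4), a log2 fold change of -3.37 (SE 0.32, 95% interval -4.07 to -2.67), or 10.3-fold lower. These values rest on 602 counts in WT and 126 in *Jag2sm*. The log2 fold change was -3.21 without WT replicate 1 and -3.73 with *Jag2sm* replicate 3 alone.

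*Fxyd1* encodes phospholemman, the FXYD protein of heart and skeletal muscle whose phosphorylation relieves its hold on the pump. Its normalized counts were 225, 72.4 and 87.3 CPM in WT and 19.8, 41.5, 13.8 and 54.6 CPM in *Jag2sm*. All *Jag2sm* libraries lay below all WT libraries, but WT replicate 1 was well above replicates 2 and 3. The means were 128 ± 84.0 CPM and 32.4 ± 19.0 CPM, a log2 fold change of -1.79 (SE 0.50, 95% interval -2.89 to -0.68). The log2 fold change was -2.17 with the batch number as a replicate block, -2.16 without *Jag2sm* replicate 4, -1.30 without WT replicate 1 and -3.01 with *Jag2sm* replicate 3 alone.

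*Fxyd5* encodes dysadherin, which binds the pump and is also known for weakening adhesion between cells. It had 5.76, 20.0 and 14.2 CPM in WT and 52.3, 26.9, 19.7 and 23.6 CPM in *Jag2sm*. The groups overlapped, since *Jag2sm* replicate 3 lay just under WT replicate 2, and WT replicate 1 held a single count of the gene. The log2 fold change was 0.87 (SE 0.41) with a 95% interval of -0.04 to 1.78, which includes no change. It was 0.73 without WT replicate 1 and 0.30 with *Jag2sm* replicate 3 alone.

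**Figure D1:**
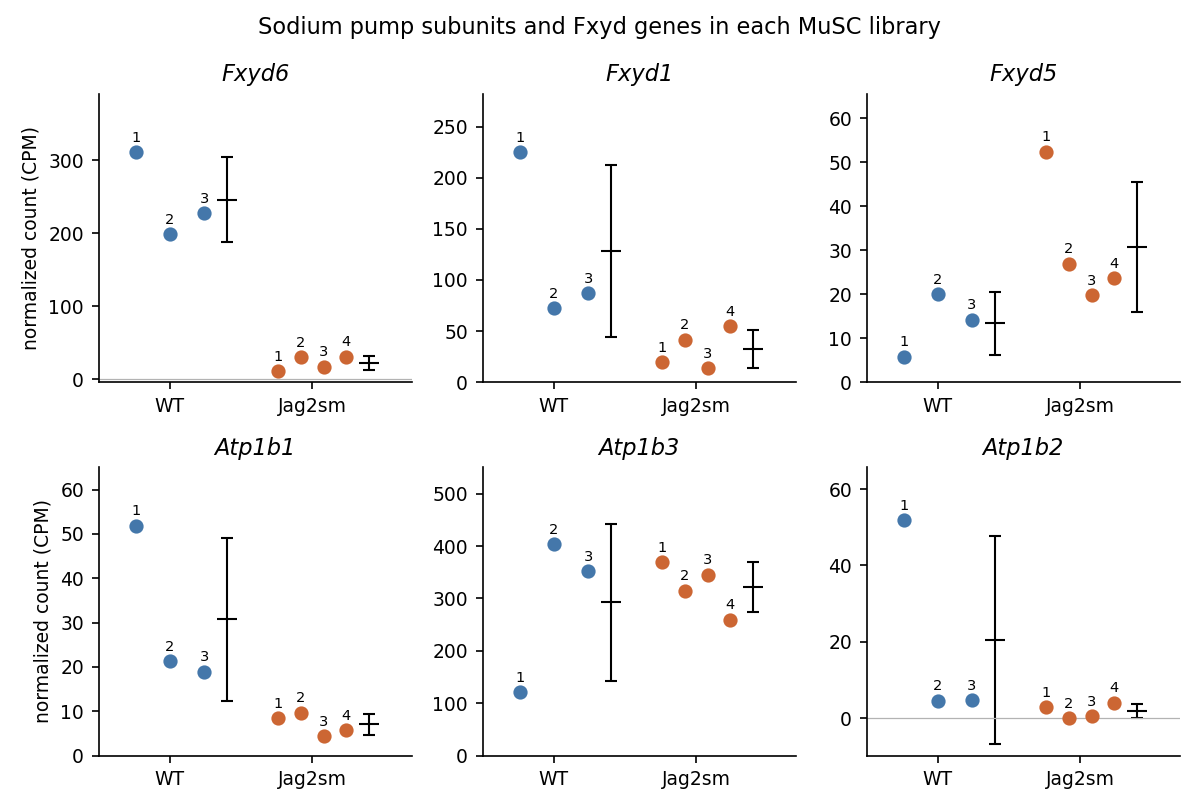
Normalized count (CPM, linear axes with a separate range in each panel) of 5 pump and Fxyd genes and of *Atp1b2* in each library. Points are libraries with their replicate number, bars are the mean ± SD of 3 WT or 4 *Jag2sm* libraries. *Fxyd6* lay between 199 and 311 CPM in WT and between 11.3 and 31.0 CPM in *Jag2sm*, while the *Atp1b3* points of the genotypes overlapped.

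Among the beta subunits, *Atp1b1* was low in *Jag2sm* and *Atp1b3*, with many more counts, was not. *Atp1b1* encodes the beta 1 subunit, the most widespread of the beta forms. It had 51.9, 21.3 and 19.0 CPM in WT and 8.48, 9.67, 4.43 and 5.71 CPM in *Jag2sm*, with no overlap. The means were 30.7 ± 18.4 CPM and 7.07 ± 2.42 CPM, and the log2 fold change was -1.86 (SE 0.43, 95% interval -2.81 to -0.90). Only 62 counts in WT and 36 in *Jag2sm* stand behind these values. The log2 fold change was -1.56 without WT replicate 1 and lay between -2.15 and -1.59 as each other library was left out. It was -2.38 with *Jag2sm* replicate 3 alone.

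*Atp1b3* encodes the beta 3 subunit, a form found in many tissues. It had 121, 404 and 352 CPM in WT and 369, 314, 345 and 259 CPM in *Jag2sm*. All 4 *Jag2sm* libraries lay within the WT range, but WT replicate 1 set its lower end. *Jag2sm* replicates 2, 3 and 4 lay below WT replicates 2 and 3, while *Jag2sm* replicate 1 lay between them. The means were 292 ± 151 CPM and 322 ± 47.5 CPM, and the log2 fold change was 0.09 (SE 0.34) with a 95% interval of -0.65 to 0.83. The low value of WT replicate 1 rests on 21 counts, and without that library the log2 fold change was -0.24, so its sign depended on 1 library. With *Jag2sm* replicate 3 alone it was 0.23.

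*Atp1b4* encodes a muscle protein of the beta family that has lost its role in the pump in placental mammals and sits in the nuclear membrane. It had 0 counts in all 7 libraries. A count of 0 allows a level of up to 1.08 CPM over the WT libraries together and 0.554 CPM over the *Jag2sm* libraries. These limits, and the intervals of shares given further on, cover counting error only.

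Of the 5 genes tested, 2 were called by edgeR at an adjusted p under 0.05, *Fxyd6* and *Atp1b1*, both lower in *Jag2sm*. Of all 9489 genes tested, 6.26% were called, 4.84% lower and 1.42% higher. The number of genes called higher, 135, depended on single libraries, with 33 without WT replicate 2, 20 without WT replicate 3, 83, 30 and 220 without *Jag2sm* replicate 1, 2 and 3, and the number called lower, 459, became 221 without *Jag2sm* replicate 2. *Fxyd6*, *Fxyd1* and *Atp1b1* had every *Jag2sm* library below every WT library, as had 12.2% of all genes tested. Nothing is read from these counts, since the same comparison chose the genes. DESeq2, in which 6.35% of genes with an adjusted p were called, called 3 of them, the third being *Fxyd1*, as did edgeR without a filter on low counts and with the replicate block. The edgeR call of *Atp1b1* was lost with *Jag2sm* replicate 3 alone and when any library other than WT replicate 1 was left out, and *Fxyd1* gained a call without *Jag2sm* replicate 4. In bulk RNA, fewer cells of a type and less RNA per cell cannot be told apart.

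Libraries of the 2 genotypes with the same number, 1, 2 or 3, also share a batch number in the labels and so form 3 pairs. As differences of log2 CPM within batches 1, 2 and 3, *Fxyd6* was lower by -4.59, -2.64 and -3.56 and *Fxyd1* by -3.40, -0.78 and -2.52. *Atp1b1* differed by -2.39, -1.02 and -1.75. For these 3 genes every *Jag2sm* library lay below every WT library, so any pairing would give negative differences. The batches thus add no separate evidence for them. The gap was widest in batch 1, which holds the shallow WT library. *Fxyd5* differed by 2.85, 0.40 and 0.43 and was higher in each batch. *Atp1b3* differed by 1.59, -0.36 and -0.03, and so had no common direction.

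**Figure D2:**
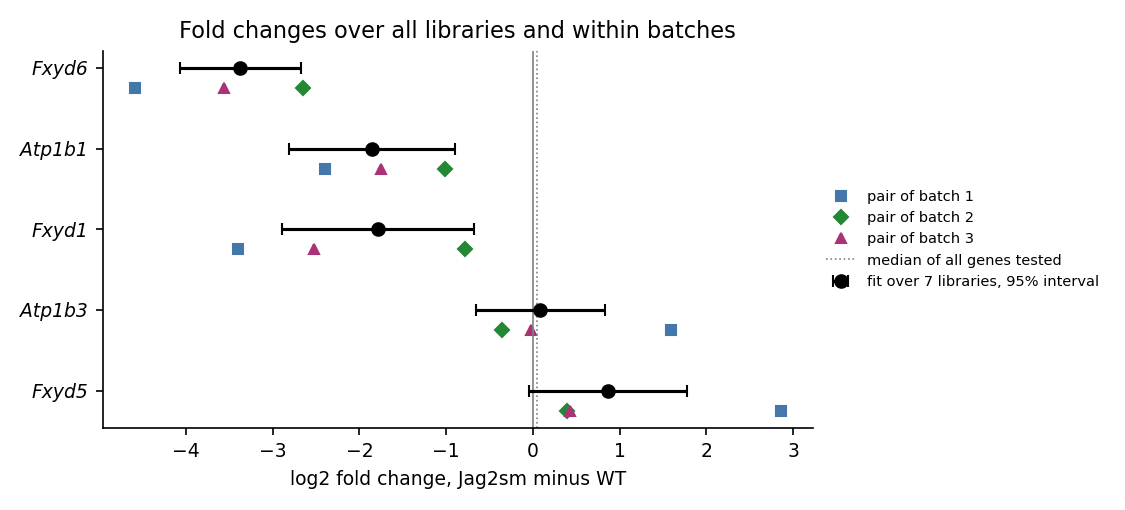
Log2 fold change of *Jag2sm* against WT for 5 pump and Fxyd genes. Black points with bars are the fit over 7 libraries with its 95% interval, coloured symbols are differences of log2 CPM within the pairs of batches 1, 2 and 3, and the dotted line is the median of all genes tested (0.05). *Fxyd6*, *Fxyd1* and *Atp1b1* were below 0 in each batch, and *Fxyd5* above 0. For *Fxyd6*, *Fxyd1* and *Atp1b1* this follows from the lack of overlap between the genotypes.

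The order of the genes by level, per kilobase of the canonical transcript, differed between the genotypes. In WT, *Fxyd1* (159 ± 104 CPM per kb, SD, n = 3), *Atp1b3* (145 ± 74.8) and *Fxyd6* (126 ± 29.8) came highest, and each neighbouring pair overlapped in range. Clear of these came *Atp1b1* (11.9 ± 7.12), *Fxyd5* (11.3 ± 6.10) and *Atp1b2* (6.79 ± 9.09), whose ranges overlapped with one another in that order. In *Jag2sm*, *Atp1b3* was highest at 160 ± 23.6 CPM per kb (SD, n = 4) and clear of the next gene. *Fxyd1* (40.2 ± 23.5) and *Fxyd5* (26.1 ± 12.5) followed with overlapping ranges. *Fxyd6* stood at 11.5 ± 4.95 CPM per kb, below *Fxyd5* and without overlap with it. *Atp1b1* stood at 2.74 ± 0.938 CPM per kb, clear of *Fxyd6* above it and of *Atp1b2* below it at 0.616 ± 0.643. A long read can span a whole transcript, so the division by length may not suit these libraries. Undivided, the WT means were 292 CPM for *Atp1b3*, 246 CPM for *Fxyd6* and 128 CPM for *Fxyd1*, and the *Jag2sm* ranges of *Fxyd5* and *Fxyd6* overlapped (19.7 to 52.3 and 11.3 to 31.0 CPM). The first place of *Fxyd1* in WT also rested on WT replicate 1. Without that library the WT means per kb were 188 for *Atp1b3*, 109 for *Fxyd6* and 99.0 for *Fxyd1*. *Fxyd5* (14.6) then stood above *Atp1b1* (7.81), and *Atp1b2* was at 1.54. The WT overlaps among *Fxyd5*, *Atp1b1* and *Atp1b2* were thus lost without WT replicate 1. *Atp1b3* was then also clear of *Fxyd6*, while *Fxyd6* and *Fxyd1* still overlapped.

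Within the Fxyd family, *Fxyd6* held a smaller and *Fxyd5* a larger share of counts in *Jag2sm* than in WT, while the shares of *Fxyd1* overlapped. *Fxyd6* held 57.4% (95% Wilson interval 47.4% to 67.0%), 68.0% (63.6% to 72.1%) and 69.0% (63.9% to 73.6%) of Fxyd counts in the WT libraries. In *Jag2sm* it held 13.3% (6.91% to 24.2%), 30.6% (23.6% to 38.5%), 34.3% (25.9% to 43.8%) and 28.1% (21.2% to 36.3%). Every *Jag2sm* share of *Fxyd6* lay below every WT share, with no overlap of the intervals. *Fxyd5* held 1.06%, 6.84% and 4.31% in WT and 61.7%, 27.1%, 38.1% and 21.5% in *Jag2sm*. *Fxyd1* held 41.5%, 24.7% and 26.4% in WT and 23.3%, 41.7%, 26.7% and 49.6% in *Jag2sm*. The summed level of the family was 388 ± 134 CPM in WT and 86.5 ± 25.4 CPM in *Jag2sm*. A share grows when the rest of the family falls. The larger share of *Fxyd5*, whose CPM overlapped between the genotypes, thus does not by itself show a rise of that gene.

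The other Fxyd genes had hardly any counts in either genotype. *Fxyd2*, the gamma subunit of kidney, had 2 counts in WT and 2 in *Jag2sm*, *Fxyd4* had 1 in each, *Fxyd3* had 0 in WT and 1 in *Jag2sm*, and *Fxyd7*, known from brain, had 0 in all libraries. None of these 4 genes was tested.

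For the beta family, the summed level of the 4 genes was 343 ± 106 CPM in WT and 331 ± 47.3 CPM in *Jag2sm*, and the ranges overlapped. *Atp1b3* held 53.8% (38.6% to 68.4%), 94.0% (91.9% to 95.6%) and 93.7% (90.8% to 95.7%) of beta counts in WT and 97.0%, 97.0%, 98.6% and 96.4% in *Jag2sm*. WT replicate 1, with 39 beta counts, stood apart. *Atp1b1* held 23.1%, 4.96% and 5.05% in WT and 2.23%, 2.99%, 1.27% and 2.12% in *Jag2sm*. *Atp1b2*, a beta subunit of glia that is also present in muscle, had 9, 7 and 5 counts in WT and 2, 0, 1 and 5 in *Jag2sm* and was not tested. The ratio of its pooled counts, scaled to library size, was -2.36 on the log2 scale (95% exact interval -3.74 to -1.12), and 9 of its 21 WT counts came from WT replicate 1. Without that library it was -1.64 (-3.14 to -0.23). These intervals cover counting error only and not the spread between libraries.

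**Figure D3:**
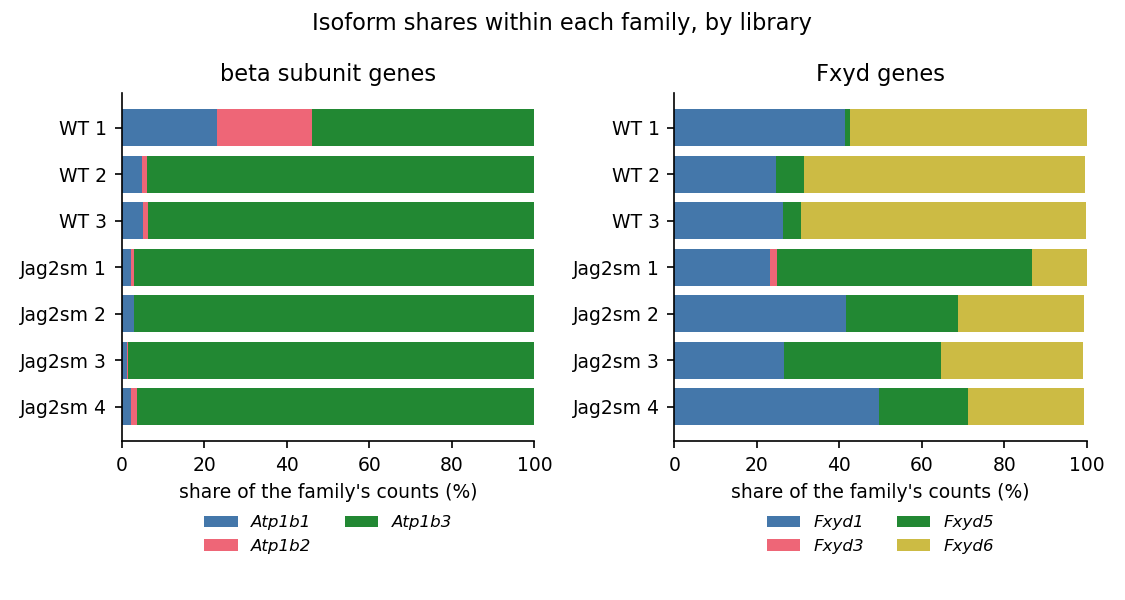
Share of each gene (%) in the counts of the beta and Fxyd families in each library, drawn as stacked bars from 0. Genes with very few counts (*Fxyd2*, *Fxyd4*) are left out of the picture, so some Fxyd bars end just short of 100. *Fxyd6* took a smaller share in all *Jag2sm* libraries than in all WT libraries, and *Atp1b3* took 93.7% or more of the beta counts everywhere except in WT replicate 1.

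For each of the 5 tested genes, the 3 genes with the most similar profile over the 7 libraries were found by the root mean square difference of centred log2 CPM, among genes with a similar or higher mean. For *Fxyd6* they were *Mylk4*, a muscle member of the myosin light chain kinase family (0.33), *Smyd1*, a methyltransferase needed for sarcomere assembly (0.50), and *Myom2*, which encodes the M-protein of the sarcomere (0.51), where the median over 4896 genes was 1.80. For *Fxyd1* they were *Pygm*, the muscle glycogen phosphorylase (0.25), the T-box factor gene *Tbx15* (0.28) and the ubiquitin protease gene *Usp28* (0.29), with a median of 1.27. For *Atp1b1* they were *Baiap2l1* (0.18), *Peds1* (0.21) and the carnitine acetyltransferase gene *Crat* (0.21), with a median of 1.10. The log2 fold changes were -3.22, -3.29 and -3.29 for the neighbours of *Fxyd6* and -1.76, -2.29 and -1.49 for those of *Fxyd1*. For those of *Atp1b1* they were -2.12, -1.52 and -1.59. The profiles span both genotypes, so likeness in part repeats the comparison that chose the genes and is no separate evidence.

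The other two tested genes had other neighbours. The nearest to *Fxyd5* were *Selenom* (0.17), *Gm56517* (0.20) and *Sh2b3* (0.20), with a median of 0.85. The nearest to *Atp1b3* were *Ube2srt* (0.12), *Romo1* (0.14) and *Tnfrsf12a* (0.15), with a median of 0.50 over 937 genes. Among the members, *Fxyd6* differed from *Fxyd1* by 0.86 and from *Atp1b1* by 0.98, but from *Atp1b3* by 2.04 and from *Fxyd5* by 2.45. These differences also span both genotypes and in part repeat the comparison that chose the genes.

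Genes with related roles were taken from lists of other pump subunits and Fxyd genes, pump-binding proteins, sodium-coupled transporters, potassium routes, muscle sodium and chloride channels, and calcium pumps with their small regulators. Of 79 such genes, 37 were tested, of which 8 fell and 2 rose, or 27.0% called against 6.26% of all genes. The lists were written with earlier results of these data known, so nothing is read from the higher share. Of the 8 that fell, 3 were in the list of muscle sodium and chloride channels and 4 in that of calcium pumps. The median log2 fold change of all genes was 0.05.

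Pump-binding proteins included no called gene among 5 tested of 8, with a median log2 fold change of 0.69. Among sodium-coupled transporters, which use the gradient the pump makes, 1 of 13 tested rose and none fell, with a median of 0.08. The one that rose was *Slc5a3*, which carries myo-inositol. It had 23.1, 66.6 and 37.9 CPM in WT and 110, 106, 120 and 91.3 CPM in *Jag2sm*, with no overlap (log2 fold change 1.16, SE 0.28, edgeR adjusted p = 0.0342). Its call was lost with the replicate block (log2 fold change 1.34, edgeR adjusted p = 0.0518) and without WT replicate 1 (1.00, adjusted p = 0.0501). Exons of *Slc5a3* overlap those of *Mrps6* on the same strand, so these genes may share reads. The call was also lost without WT replicate 3 (log2 fold change 1.00, edgeR adjusted p = 0.190). Without *Jag2sm* replicate 1, 2 or 3 it was lost at log2 fold changes of 1.15, 1.18 and 1.09. There the edgeR adjusted p was 0.0668, 0.0908 and 0.0548. With *Jag2sm* replicate 3 alone the call was lost at a log2 fold change of 1.36.

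Potassium routes are the channels and cotransporters through which potassium leaves the cell. Of 21, 6 were tested, 1 rose and 1 fell, with a median log2 fold change of -0.02. *Kcnn3*, a small-conductance channel opened by calcium, had 213, 54.3 and 59.7 CPM in WT and 12.7, 6.22, 4.43 and 17.9 CPM in *Jag2sm* (log2 fold change -3.24, SE 0.58, edgeR adjusted p = 0.0104). Every *Jag2sm* library lay below every WT library. Without WT replicate 1, the gene had a log2 fold change of -2.57. The call was lost with *Jag2sm* replicate 3 alone (log2 fold change -4.30, adjusted p = 0.0532).

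*Kcnn4*, the intermediate-conductance channel of the same calcium-opened family as *Kcnn3*, went the other way. It had 0, 3 and 3 counts in WT and 29, 22, 27 and 15 counts in *Jag2sm* (log2 fold change 3.08, SE 0.68, edgeR adjusted p = 0.0240). Without WT replicate 1, its log2 fold change was 2.97. The call was lost with *Jag2sm* replicate 3 alone (log2 fold change 2.59, adjusted p = 0.151), and without WT replicate 2 or 3 or *Jag2sm* replicate 2 (adjusted p = 0.126, 0.0851 and 0.0524).

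Of 9 muscle sodium and chloride channel genes, 6 were tested, 3 fell and none rose, with a median log2 fold change of -0.88. Of the 3 not called, *Ano1* lay highest (log2 fold change 1.85, edgeR adjusted p = 0.0853). *Scn4a*, the voltage-gated sodium channel that carries the action potential of muscle fibers, fell from 26.6 ± 26.9 to 1.67 ± 1.65 CPM (log2 fold change -3.44, SE 0.81, edgeR adjusted p = 0.0318). Its WT values were 57.6, 11.6 and 10.4 CPM, so WT replicate 1 raised the WT mean. *Scn3b*, an accessory subunit of sodium channels, fell from 52.0 ± 5.46 to 17.3 ± 8.52 CPM (log2 fold change -1.55, edgeR adjusted p = 0.0257). *Ano5*, an anoctamin linked to membrane repair in muscle, had 236, 129 and 101 CPM in WT and 28.3, 12.4, 19.7 and 32.6 CPM in *Jag2sm* (log2 fold change -2.67, edgeR adjusted p = 0.00355). All 3 were separated between the genotypes, and all 3 calls were lost with *Jag2sm* replicate 3 alone (adjusted p = 0.131, 0.123 and 0.0507). There the log2 fold changes of *Scn4a*, *Scn3b* and *Ano5* were -4.75, -1.52 and -2.86, and without WT replicate 1 they were -2.80, -1.60 and -2.36. Without *Jag2sm* replicate 4, that of *Scn4a* was -4.36. The call of *Scn4a* was also lost without WT replicate 2 (log2 fold change -3.96, edgeR adjusted p = 0.0561). Without *Jag2sm* replicate 1, 2 or 3 it was lost at log2 fold changes of -3.37, -3.16 and -2.89. There the edgeR adjusted p was 0.0657, 0.0972 and 0.0650. With the replicate block the *Scn4a* call was kept at -4.47. The call of *Scn3b* was lost without WT replicate 2 or 3 (log2 fold changes -1.54 and -1.50, edgeR adjusted p = 0.0971 and 0.109). Without *Jag2sm* replicate 2 it was also lost (log2 fold change -1.59, edgeR adjusted p = 0.0751).

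Calcium pumps of the sarcoplasmic reticulum are built on a plan like that of the sodium pump and, like it, have small membrane proteins as regulators. The list held 11 genes, among them calcium pumps of the plasma membrane and the Golgi apparatus. Of these 11, 7 were tested, 4 fell and none rose, with a median log2 fold change of -1.28. The 4 that fell were pumps of the reticulum and their regulators, and the tested genes that were not called were *Atp2b1*, *Atp2b4* (log2 fold change 1.73, edgeR adjusted p = 0.0888) and *Atp2c1* (-0.33). *Atp2a1*, the pump of fast fibers, had 208, 62.1 and 74.9 CPM in WT and 8.48, 6.91, 3.45 and 11.4 CPM in *Jag2sm*, and fell 13.8-fold (log2 fold change -3.79, edgeR adjusted p = 0.00311). Its log2 fold change was -3.26 without WT replicate 1 and -4.78 with *Jag2sm* replicate 3 alone. *Atp2a2*, the pump of heart, slow fibers and most other cells, fell from 353 ± 141 to 142 ± 20.4 CPM (log2 fold change -1.28, edgeR adjusted p = 0.0192). Its call was lost with *Jag2sm* replicate 3 alone (log2 fold change -1.31) and without *Jag2sm* replicate 2 (log2 fold change -1.21, edgeR adjusted p = 0.0827). It was kept without WT replicate 1, where the log2 fold change was -0.96.

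Of 4 small regulators of these pumps in the list, 2 fell, and *Strit1* (3 counts in WT and 0 in *Jag2sm*) and *Erln* (8 and 1) were not tested. *Sln*, which encodes sarcolipin, had 484, 123 and 117 CPM in WT and 12.7, 17.3, 2.96 and 23.6 CPM in *Jag2sm* (log2 fold change -3.98, SE 0.65, edgeR adjusted p = 0.00697). The size of this fall rested in part on single libraries, with a log2 fold change of -3.15 without WT replicate 1 and -6.16 with *Jag2sm* replicate 3 alone. *Mrln*, which encodes myoregulin, fell from 21.4 ± 5.39 to 4.44 ± 3.16 CPM (log2 fold change -2.38, SE 0.48, edgeR adjusted p = 0.0162). The *Mrln* call was lost without WT replicate 2 or 3 (log2 fold changes -2.48 and -2.14, edgeR adjusted p = 0.0604 and 0.112). Without *Jag2sm* replicate 2 it was also lost (log2 fold change -2.13, edgeR adjusted p = 0.0531). With the replicate block the *Mrln* log2 fold change was -3.05. The *Mrln* log2 fold change was -2.45 without WT replicate 1, -3.01 without *Jag2sm* replicate 4 and -3.11 with *Jag2sm* replicate 3 alone. *Atp2b1*, a calcium pump of the plasma membrane, was at 354 ± 37.9 and 311 ± 51.2 CPM and was not called (edgeR adjusted p = 0.675).

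**Figure D4:**
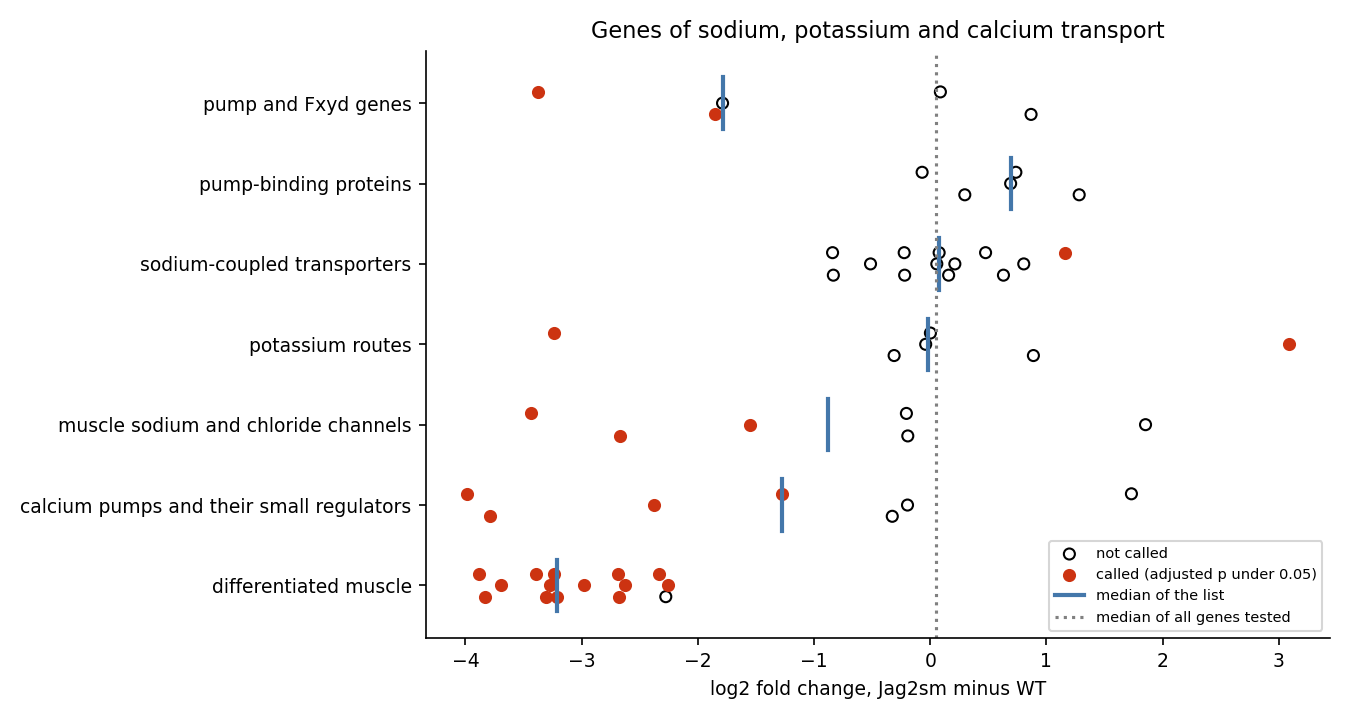
Log2 fold change of *Jag2sm* against WT for each tested gene, by list. Filled points were called at an edgeR adjusted p under 0.05, blue bars are list medians, and the dotted line is the median of all genes tested (0.05). Called genes of the ion transport lists lay at -1.28 or below, apart from *Slc5a3* at 1.16 and *Kcnn4* at 3.08.

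Markers of differentiated muscle were lower in *Jag2sm*, as *Fxyd6* and *Atp1b1* were. Of 17 such genes, 15 were tested and 14 fell, with a median log2 fold change of -3.21, and none was at 0. Over all genes tested, 4.84% were called lower, and this list was written with earlier results of these data known. The summed level of the 17 markers was 55562, 34157 and 39103 CPM in WT and 6431, 4383, 1409 and 9014 CPM in *Jag2sm*. *Acta1*, the skeletal muscle actin gene, was the most abundant, with 13944, 6071 and 6458 CPM in WT and 1442, 634, 181 and 1390 CPM in *Jag2sm*. The part of this difference in the results for the pump and Fxyd genes was not tested.

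Markers of MuSCs and myoblasts summed to 5839, 3419 and 3348 CPM in WT and 2165, 2276, 2344 and 2633 CPM in *Jag2sm*, with *Des* the most abundant. *Des* alone made up 4600, 1807 and 1875 CPM of these sums in WT and 912, 836, 706 and 1103 CPM in *Jag2sm*. *Calcr* and *Chrdl2*, markers of stem cells at rest, had 1 and 3 counts over all libraries. Of the 10 markers, 8 were tested, with a median log2 fold change of 0.07. None rose and only *Des*, which encodes the intermediate filament desmin, fell (log2 fold change -1.63, edgeR adjusted p = 0.0244). *Pax7*, the transcription factor of satellite cells, was at 28.8, 95.7 and 80.6 CPM in WT and 100.4, 129, 172 and 125 CPM in *Jag2sm* and was not called (adjusted p = 0.174).

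Markers of other cell types were low. Summed endothelial markers lay between 2.45 and 14.1 CPM, with *Kdr*, *Tie1* and *Esam* at 0. *Tek* was the most abundant by mean CPM, while *Pecam1* had the most counts (18 against 15 for *Tek*). Summed immune markers lay between 0 and 6.64 CPM, with *Ptprc*, *Adgre1*, *Lyz2* and *Cd3e* at 0 and *Cd68* the most abundant. Fibroblast markers summed to 11.5 to 98.6 CPM, with *Lum* and *Dpt* at 0 and *Thy1* the most abundant, and glial markers to 16.97 CPM in the highest library, with *Cdh19* at 0 and *Ngfr* the most abundant. Mural cell markers stood at 59.7 to 89.8 CPM in 6 libraries and at 687 CPM in *Jag2sm* replicate 1, of which *Rgs5* made up 645 CPM. The log2 fold change of *Fxyd6* without that library was -3.19, and that of *Fxyd5*, which was highest there, was 0.54.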

How the data were processed

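The authors prepared direct cDNA libraries, pooled them after barcoding on 2 flow cells, called bases with dorado, and used minimap2 2.17 (GRCm39 build) and then htseq to obtain counts per gene. They deposited raw counts, 1 file per library, with 56748 genes and 5 summary rows, which were left out of library sizes and tests. The htseq version, strand setting and annotation release are not given in the sources used here. The authors' table of their own DESeq2 comparison (mean normalized count, fold change, p-value) was not used.

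Counts were analysed with edgeR 4.0.16 in R 4.3.3. Genes were kept by filterByExpr (minimum count 10, minimum total 15), libraries were normalized by TMM, and genotypes were compared by the quasi-likelihood test (glmQLFit, glmQLFTest) with no covariate. The threshold for a call was 0.05 for the p adjusted by Benjamini-Hochberg over all 9489 genes tested. CPM are scaled to the effective library size, and log2 CPM use a prior count of 2. DESeq2 1.42.0 was an alternative. The precision of each library follows from its depth, given as the CPM worth of 3 counts. Locations, transcript lengths and windows come from the GRCm39 genome and GENCODE release M39, in which 56017 identifiers were found. Wilson and exact intervals are at 95% (SciPy 1.17.1).

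The members and all lists were chosen with earlier results of these data known. The genes named are the 6 members, the other subunit and Fxyd genes, and in each other list every called gene (at most the 4 with the smallest p). The 3 nearest profiles of each tested member and markers of each cell type are also named. *Jag2*, *Atp2b1* and *Pax7* were added as reference values. Outside this rule, the uncalled genes *Ano1*, *Atp2b4*, *Atp2c1*, *Slc6a6* and *Cav1* and the untested genes *Strit1*, *Erln* and *Kcnma1* are given too. The batch label pairs WT and *Jag2sm* replicates 1 to 3, while deviations from the genotype means correlated between batch mates at 0.0740, 0.0144 and 0.0539 across 9489 genes, which are not independent. The batch was therefore a replicate block only as an alternative. Alternatives were other normalizations, filters, the block, thinning to the smallest library and leaving out each library. *Jag2sm* replicate 3 alone against WT was added after seeing the data. Some genes of these lists, and a comparison that needs them, are not reported here. The fits were also run on simulated counts, whose outcome is not given here and is not used for any result.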

Additional observations from a re-analysis of the deposited data

Results flagged for a closer look

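Among 16 sets of *Jag2sm* values screened for a library far from the others of its genotype, 1 was picked out. *Kcnn4*, the intermediate-conductance potassium channel gene, was at 41.0 CPM in *Jag2sm* replicate 1 and at 15.2, 13.3 and 12.2 CPM in replicates 2, 3 and 4. The gap to the nearest library was 0.897 of the whole range. Chance alone is expected to pick out about 1 of 20 such sets. *Jag2sm* replicate 1 is the shallowest *Jag2sm* library and the one with high *Rgs5*, and the part of either in the *Kcnn4* value was not tested.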

How the results depend on the processing

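The number of genes called, 594, became 1248 without a filter on low counts, 274 with at least 10 counts in every library, 28 after thinning every library to the smallest, and 221 with *Jag2sm* replicate 3 alone. It ranged from 251 (without *Jag2sm* replicate 2) to 616 (without *Jag2sm* replicate 3) as each library was left out, and was 343 without WT replicate 2 and 341 without WT replicate 3. Of the genes in the ion transport lists, 10 were called, against 16, 2, 0 and 3 under the same 4 settings and 4 to 10 as each library was left out (4 without *Jag2sm* replicate 2, 6 without WT replicate 2 and 6 without WT replicate 3). Fewer genes could be tested under the stricter filter and after thinning. Of the pump and Fxyd genes, 2 were called. This became 3 without a filter on low counts and in DESeq2, where *Fxyd1* was added, 0 under the stricter filter, where *Fxyd6* and *Atp1b1* were not tested, 0 after thinning and 1 with *Jag2sm* replicate 3 alone. It was 1 to 2 as each library was left out, since *Atp1b1* was called with all libraries and without WT replicate 1 but lost without any other, while *Fxyd1* was called without *Jag2sm* replicate 4.

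The log2 fold change of *Fxyd6* was -2.60 after thinning and that of *Fxyd1* was -3.01 with *Jag2sm* replicate 3 alone. Over the alternatives that gave a gene a value, the range was -3.73 to -2.60 for *Fxyd6* and -3.01 to -1.30 for *Fxyd1*. For *Atp1b1* it was -2.38 to -1.56, for *Fxyd5* 0.30 to 1.26 and for *Atp1b3* -0.33 to 0.39. Under the stricter filter *Fxyd6*, *Fxyd5* and *Atp1b1* had no value, and after thinning *Fxyd1*, *Fxyd5* and *Atp1b1* had none. With the replicate block 565 genes were called, *Fxyd1* joined the called pump and Fxyd genes, *Slc5a3* was lost, and no other call among the genes named from the ion transport lists changed. Scaling to library size alone raised the median log2 fold change of all genes by 0.16 and lowered the share of called genes that were lower from 77.3% to 61.4% (62.5% without a filter), while no member changed its call or direction. The causes of these shifts were not tested. At the depth of WT replicate 1, genes with a few counts per library could not be compared.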

Other observations

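Some ion transport genes were separated between the genotypes without passing the test, and the ones given here were chosen after their values were seen. Such separation, in either direction, was found for 22.5% of all genes tested. *Slc6a6*, the sodium-coupled taurine transporter, was at 256 ± 67.6 CPM in WT and 141 ± 24.8 CPM in *Jag2sm* (edgeR adjusted p = 0.0678). *Cav1*, which encodes caveolin-1, was at 8.98 ± 4.09 CPM in WT and 25.9 ± 7.87 CPM in *Jag2sm* (edgeR adjusted p = 0.0692). *Ano1*, a calcium-activated chloride channel gene, was at 0, 30.4 and 12.3 CPM in WT and 117, 41.5, 90.7 and 35.9 CPM in *Jag2sm* (edgeR adjusted p = 0.0853). *Atp2b4*, a plasma membrane calcium pump gene, was at 0, 6.46 and 4.74 CPM in WT and 19.8, 20.7, 7.88 and 23.6 CPM in *Jag2sm* (edgeR adjusted p = 0.0888). *Kcnma1*, the large-conductance calcium-activated potassium channel gene, had 6, 3 and 4 counts in WT and 0, 0, 0 and 1 counts in *Jag2sm* and was not tested.

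*Abcc9*, listed among mural cell markers and also known as the regulatory subunit of the ATP-sensitive potassium channels of muscle, fell from 7, 17 and 14 counts in WT to 0, 4, 1 and 1 counts in *Jag2sm* (log2 fold change -3.71, edgeR adjusted p = 0.0139). *Rgs5*, the mural marker with the most counts over all libraries, was at 11.5, 12.9 and 14.2 CPM in WT and at 645, 29.7, 40.4 and 25.3 CPM in *Jag2sm*, so the *Jag2sm* libraries lay above the WT libraries and replicate 1 far above all. The difference was not significant (edgeR adjusted p = 0.135).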
